A study of Homo sapiens with 9 samples.

Results

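The RAS-RAF-MEK-ERK core genes are the 7 genes of the central signalling cassette that were chosen by symbol in every count table: NRAS, BRAF, ARAF, MAP2K1, MAP2K2, MAPK3 and NF1. All 7 were found among the 58920 genes listed, and all 7 were among the 19102 genes that passed the filter on low counts. HRAS was left out of the set because it had almost no counts. The cells were LIM1215, a human colorectal cancer cell line without a RAS mutation at the outset, in 3 versions. LIM1215-parental had been kept for months without drug. LIM1215-R1 and LIM1215-R2 were resistant populations selected side by side in rising doses of cetuximab, an antibody against the EGF receptor, and neither is a clone. The study describes subpopulations with a mutated HRAS in both resistant lines. It found these mutations by RNA sequencing of the lines and detected HRAS protein in blots. The low HRAS counts therefore do not show that the gene was silent. All 3 were sampled in basal culture without treatment, with 3 libraries of poly(A) RNA per line, so that the comparisons are between 3 lines and not between donors. The study's supplement calls these libraries technical replicates, so the p-values measure the spread between such libraries and not that between separately selected lines.

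An activated growth factor receptor recruits adaptors and exchange factors that load RAS GTPases such as NRAS with GTP. GTP-bound RAS activates the RAF kinases BRAF and ARAF, which phosphorylate the MEK kinases encoded by MAP2K1 and MAP2K2, and these in turn phosphorylate the ERK kinases, among them the one encoded by MAPK3. NF1, or neurofibromin, is a GTPase-activating protein that returns RAS to its inactive state. The cascade is controlled largely at the level of protein activity, which RNA levels do not record.

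The 9 libraries held between 13737416 and 18725014 counts. Levels are given as counts per 1000000 counts of the library (CPM) after TMM scaling, with factors between 0.984 and 1.017. The epithelial character of the cells was checked on 11 colorectal epithelial markers, 10 of which were detected, while KRT20 was at 0 in every library. Their summed level was 13200 to 13600 CPM in LIM1215-parental, 16500 to 16800 CPM in LIM1215-R1 and 15000 to 15400 CPM in LIM1215-R2. Of the 10 markers tested, 4 were higher and 5 lower in each resistant line against LIM1215-parental, with list medians of -0.19 and -0.22 on the log2 scale. The immune markers PTPRC, CD3E and MS4A1, the fibroblast marker COL1A2 and the endothelial marker KDR had no count in any library. Other members of these lists were detected. CD68, of the immune list, averaged 10.5 CPM and was higher in R1, by 0.702 on the log2 scale. The fibroblast markers COL1A1 and PDGFRB averaged 0.925 and 0.910 CPM. LYZ, at 0.190 CPM, was lower in R2, and PECAM1, at 0.111 CPM, was lower in both resistant lines. The summed fibroblast list stayed between 1.19 and 3.19 CPM, the immune list between 7.26 and 14.7 CPM and the endothelial list between 0 and 0.722 CPM.

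The core genes were abundant and nearly level across the 3 lines. A gene counted as changed when edgeR's quasi-likelihood test gave an adjusted p no higher than 0.01. A differentially expressed gene (DEG) had in addition to differ by 1.5 or more on the log2 scale. LIM1215-R1 differed from LIM1215-parental in 2 of the 7 core genes, MAP2K2 being higher and NF1 lower, against 27.3% of all genes tested that changed in that comparison (14.0% higher and 13.4% lower). LIM1215-R2 differed from LIM1215-parental in 0 of 7, by edgeR and by DESeq2 alike, and 0 of the 7 had an unadjusted p under 0.05, against 23.8% of all genes that changed (12.3% higher and 11.6% lower). Between the resistant lines only NF1 passed, being higher in LIM1215-R2, against 7.16% of all genes (3.39% higher and 3.77% lower). None of the core genes was a DEG in any of the 3 comparisons, where DEGs made up 5.14%, 4.82% and 0.764% of the genes tested for R1 against parental, R2 against parental and R2 against R1.

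The sizes were small. The largest difference from LIM1215-parental among the core genes was 0.249 on the log2 scale in R1 and 0.112 in R2, and the 95% intervals reached no further than 0.373 and 0.258 in size. The median absolute log2 fold change of the 7 was 0.11 in R1 and 0.054 in R2, beside 0.30 and 0.28 over all genes tested. The 4776 genes whose mean lay within the range of the core genes, 34.9 to 152 CPM, had medians of 0.17 and 0.14, with 40.4% and 34.2% of them changed. The CPM of LIM1215-R1 and LIM1215-parental did not overlap for 1 of the 7 core genes, beside 44.0% of all genes, those of LIM1215-R2 and LIM1215-parental for 0 of 7 beside 42.8%, and those of the resistant lines for 3 of 7 beside 28.0%.

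**Figure D1:**
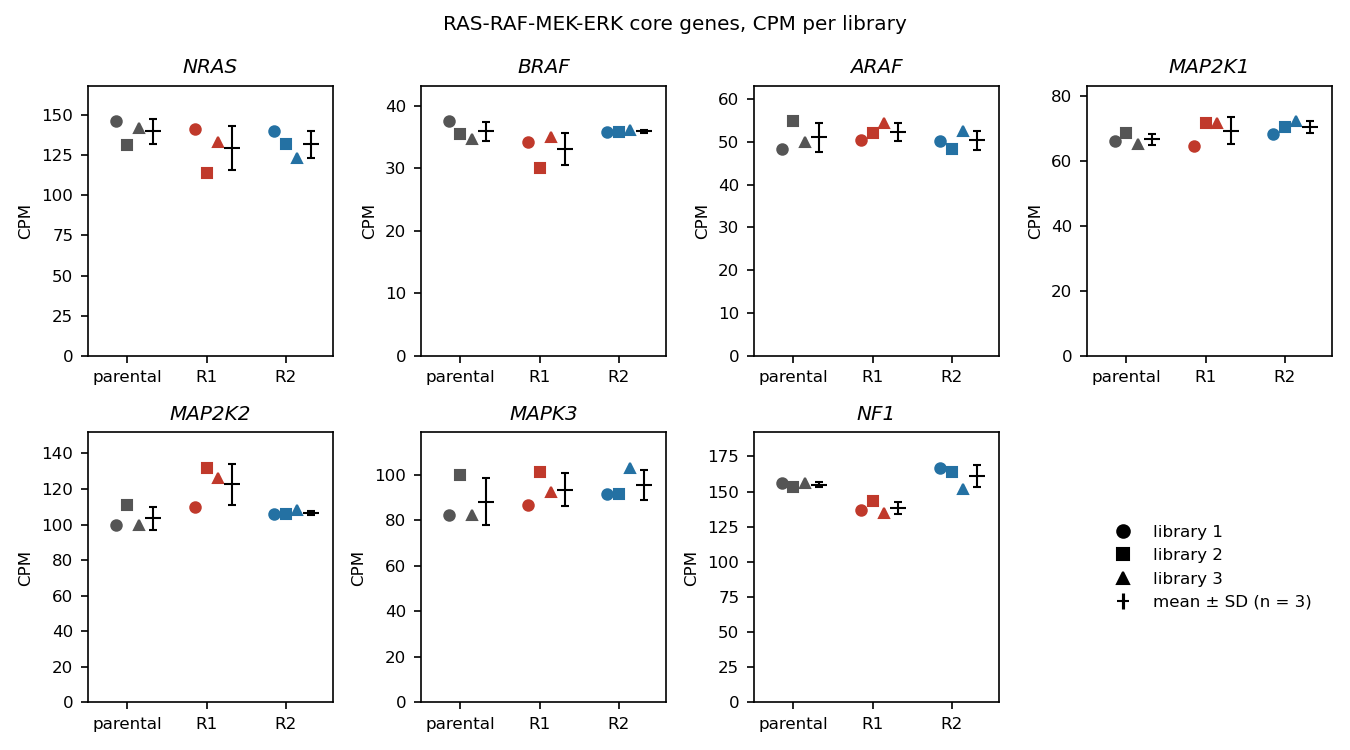
CPM of each core gene (vertical axes, from 0) in the 3 libraries of each line, with the marker shape giving the library number and the bar the mean ± SD (n = 3). The 7 genes stay at similar heights in the 3 lines; NF1 is lowest in the 3 LIM1215-R1 libraries and MAP2K2 highest in R1 libraries 2 and 3.

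NRAS, the GTPase at the head of the set (chromosome 1, 114704469 to 114716771, minus strand; all positions are GRCh38 with the GENCODE v44 annotation), was read at 146, 131 and 142 CPM in the LIM1215-parental libraries. It stood at 141, 114 and 133 CPM in LIM1215-R1, and at 140, 132 and 123 CPM in LIM1215-R2. The groups overlapped, with the second R1 library the lowest of all 9. The log2 fold change was -0.11 (SE 0.064, adjusted p = 0.193) in R1 and -0.080 (SE 0.064, adjusted p = 0.393) in R2, so that a fall below 0.845 of the parental level in R1, or below 0.864 in R2, lay outside the 95% interval.

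BRAF, the RAF kinase with the highest basal activity (chromosome 7, 140719327 to 140924929, minus strand), was the least abundant of the set in CPM. Its levels were 37.5, 35.4 and 34.7 CPM in LIM1215-parental, 34.1, 30.1 and 35.0 CPM in R1 and 35.8, 35.7 and 36.1 CPM in R2. The second R1 library was again the lowest, and R1 overlapped with LIM1215-parental. Mean levels in LIM1215-parental and LIM1215-R2 were 35.8 ± 1.45 and 35.8 ± 0.194 CPM (SD, n = 3), with an adjusted p of 1.00 and a 95% interval for the fold from 0.903 to 1.11. In R1 the log2 fold change was -0.12 (SE 0.072, adjusted p = 0.231).

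ARAF, the X-linked RAF kinase (chromosome X, 47561205 to 47571908, plus strand), was read at 48.3, 54.8 and 50.0 CPM in LIM1215-parental, 50.4, 52.0 and 54.4 CPM in R1 and 50.1, 48.3 and 52.5 CPM in R2. All 3 groups overlapped. The log2 fold changes were 0.038 (SE 0.065, adjusted p = 0.711) and -0.019 (SE 0.065, adjusted p = 0.871) for R1 and R2.

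MAP2K1, which encodes MEK1 (chromosome 15, 66386837 to 66491656, plus strand), had 66.0, 68.5 and 65.3 CPM in LIM1215-parental. It had 64.5, 71.8 and 71.6 CPM in LIM1215-R1, and 68.4, 70.5 and 72.2 CPM in LIM1215-R2. The parental values lay within the range of R1 and their highest lay just above the lowest of R2. The log2 fold changes were 0.058 (SE 0.059, adjusted p = 0.495) in R1 and 0.080 (SE 0.059, adjusted p = 0.339) in R2.

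MAP2K2, which encodes MEK2 (chromosome 19, 4090321 to 4124122, minus strand), was the core gene with the largest difference. Its levels were 99.7, 111 and 100 CPM in LIM1215-parental, 110, 132 and 126 CPM in LIM1215-R1 and 106, 106 and 108 CPM in LIM1215-R2. R1 libraries 2 and 3 were above all others, while R1 library 1 lay at the level of the second parental library, so that the groups touched. The mean rose from 103 ± 6.10 CPM to 123 ± 11.3 CPM in R1 (SD, n = 3), a fold of 1.19 with a 95% interval from 1.09 to 1.29 (log2 fold change 0.25, SE 0.060, adjusted p = 0.00158). R2 differed from LIM1215-parental by 0.049 (SE 0.061, adjusted p = 0.607) on the log2 scale. R2 against R1 gave -0.20 (adjusted p = 0.0256), which missed the threshold although the groups did not overlap.

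NF1 (chromosome 17, 31094927 to 31382116, plus strand), the brake of the set, had the tightest parental libraries, at 156, 153 and 156 CPM. LIM1215-R1 was lower in all 3 libraries, at 137, 143 and 135 CPM, and LIM1215-R2 stood at 167, 164 and 152 CPM. R1 therefore did not overlap with either line, whereas R2 library 3 lay just under the parental range. The fold in R1 was 0.890 with a 95% interval from 0.830 to 0.955 (log2 fold change -0.17, SE 0.050, adjusted p = 0.00855). R2 differed from LIM1215-parental by 0.054 (SE 0.049, adjusted p = 0.455), and from R1 by 0.22 (SE 0.050, adjusted p = 0.00269). The NF1 difference in R1 had an adjusted p of 0.0110 in the DESeq2 Wald test and missed the threshold there.

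MAPK3, which encodes ERK1 (chromosome 16, 30114105 to 30123506, minus strand), was read at 82.1, 100 and 82.4 CPM in LIM1215-parental, 86.7, 101 and 92.2 CPM in R1 and 91.5, 91.4 and 103 CPM in R2. The second parental library stood with the upper values of the resistant lines. The log2 fold changes were 0.084 (SE 0.071, adjusted p = 0.401) and 0.11 (SE 0.071, adjusted p = 0.260).

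Both calls in LIM1215-R1 were lost when trends of the libraries on base composition and transcript length were taken out. The canonical transcripts of MAP2K2 and MAPK3 are GC-rich, at 65.4% and 61.0% GC, which placed them at the 96.8 and 88.1 percentiles of the genes tested, whereas those of NF1, BRAF and NRAS hold 41.6%, 41.1% and 37.4%. Over 9204 genes of at least 10 CPM, the slope of log2 CPM on GC content relative to the mean of all libraries was steepest in R1 library 2, at 0.119 per 10 points of GC, and lowest in parental libraries 1 and 3, at -0.0796 and -0.0555. Parental library 2 and R1 library 3 had slopes of 0.0353 and 0.0418, R1 library 1 had -0.0168, and the R2 libraries had -0.0432, -0.0351 and 0.0347. R1 library 2 thus held the highest slope, the highest MAP2K2 and the lowest NRAS and BRAF of the 9 libraries. Within R1, NF1 was at 137, 143 and 135 CPM in libraries 1, 2 and 3, and what set these levels was not tested. NF1 has the longest canonical transcript of the set, at 12.4 kb, and MAP2K2 the shortest, at 1.73 kb. The slope of log2 CPM per doubling of transcript length was -0.0202, -0.0606 and -0.0413 in the R1 libraries, 0.0346, 0.000950 and 0.0265 in the parental libraries and 0.0404, 0.0280 and -0.00835 in the R2 libraries, so that R1 was below both other lines.

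When smooth trends on GC content and transcript length were removed from each library, 0 of the 7 core genes remained changed in any comparison. Of all 19102 genes tested, 3152 were then higher and 2968 lower in R1 against LIM1215-parental. The numbers were 2958 and 2812 in R2 against LIM1215-parental, and 841 and 1020 in R2 against R1. MAP2K2 then read 115, 113 and 109 CPM in LIM1215-parental, 109, 116 and 117 CPM in R1 and 108, 108 and 101 CPM in R2. NF1 read 143, 152 and 147 CPM in LIM1215-parental, 142, 159 and 145 CPM in R1 and 160, 159 and 156 CPM in R2. The R1 difference of MAP2K2 shrank to 0.029 (SE 0.041, adjusted p = 0.637) and that of NF1 turned to 0.013 (SE 0.040, adjusted p = 0.849). NF1 in R2 was then 0.11 above LIM1215-parental (SE 0.039, adjusted p = 0.0267), and MAP2K2 in R2 was -0.12 from R1 (SE 0.041, adjusted p = 0.0478). Removing either trend alone made both R1 differences smaller and lost both calls. The GC trend moved MAP2K2 more, and the length trend moved NF1 more. With the GC trend alone removed, MAP2K2 in R1 fell to 0.044 (adjusted p = 0.443) and NF1 was -0.072 (adjusted p = 0.165), while NF1 remained called between the resistant lines (0.17, adjusted p = 0.00166). With the length trend alone removed, MAP2K2 in R1 was 0.18 (adjusted p = 0.0104) and NF1 -0.024 (adjusted p = 0.744), and NF1 differed by 0.11 between the resistant lines (adjusted p = 0.143). A trend that the lines themselves carry and a trend from library preparation cannot be told apart here, and the removal takes out both.

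**Figure D2:**
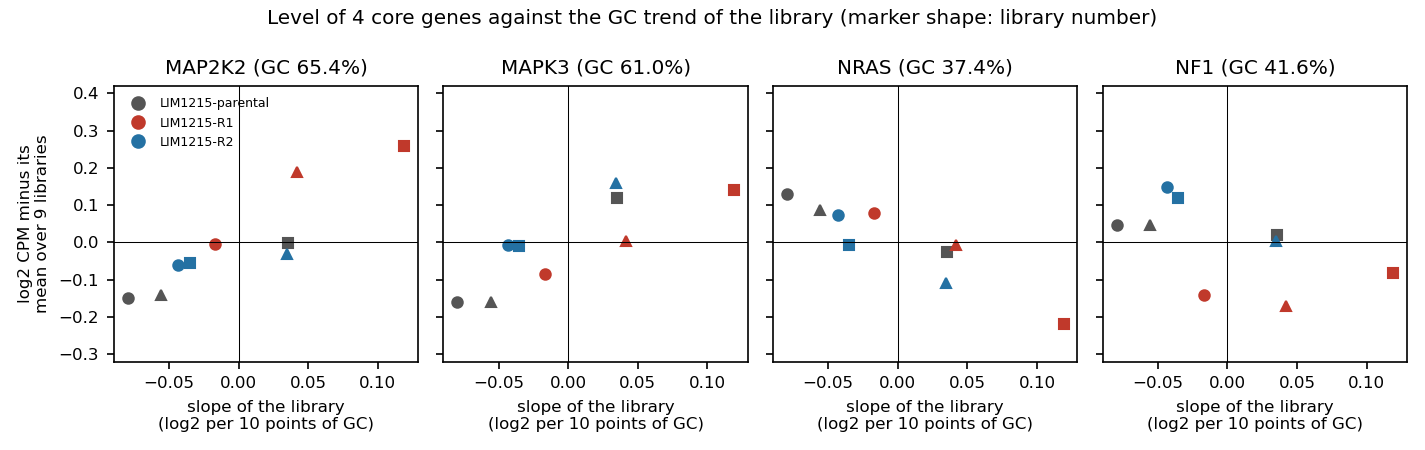
Log2 CPM of MAP2K2, MAPK3, NRAS and NF1 minus the mean over 9 libraries (vertical axis) against the slope of the same library on GC content (horizontal axis, log2 per 10 points of GC); colour gives the line and marker shape the library number. R1 library 2, at a slope of 0.119, holds the highest MAP2K2 and the lowest NRAS, while the 3 R1 libraries are lowest in NF1 at slopes from -0.0168 to 0.119.

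Both R1 calls also missed the threshold when some single libraries were left out, with the direction of the differences kept. Without parental library 1, parental library 3, R1 library 2 or R1 library 3, the adjusted p of MAP2K2 was 0.0132, 0.0137, 0.0128 and 0.0144, with log2 fold changes of 0.223, 0.227, 0.194 and 0.231. Leaving out each library in turn gave NF1 a log2 fold change in R1 between -0.149 and -0.192, with an adjusted p over the threshold in 6 of the 9 cases (without parental libraries 1 or 3, R1 libraries 1 or 3, or R2 libraries 1 or 2). The difference of NF1 between the resistant lines missed the threshold without R1 library 3, R2 library 1 or R2 library 2, at log2 values of 0.203, 0.194 and 0.207.

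**Figure D3:**
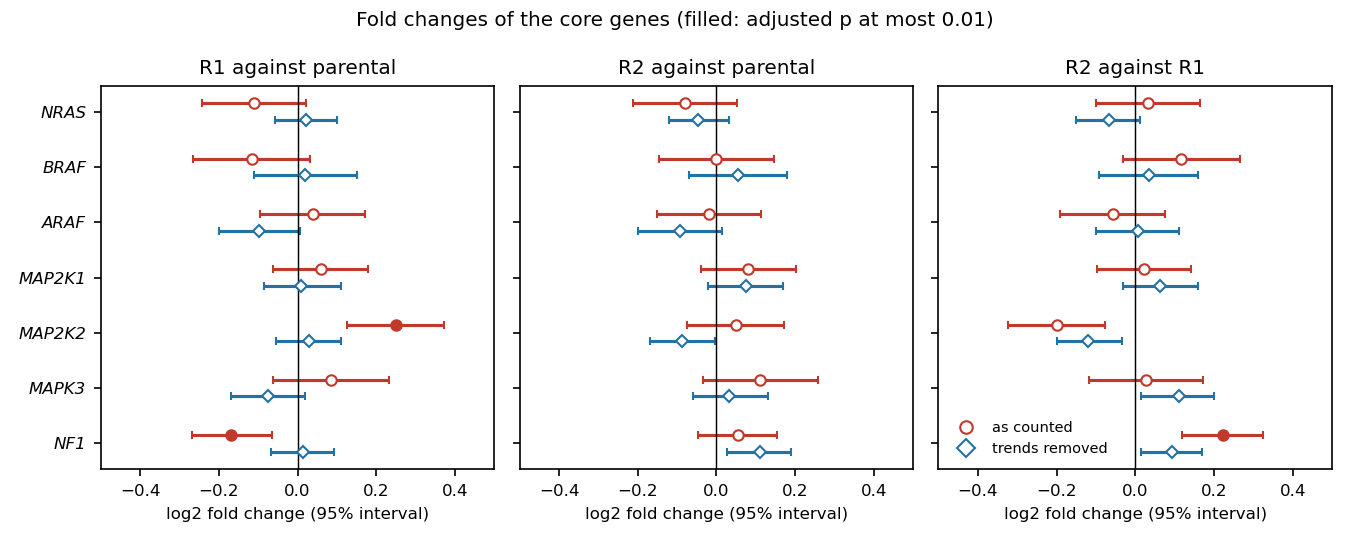
Log2 fold changes of the core genes with 95% intervals (horizontal axis) in the 3 comparisons, as counted (circles) and with the trends on GC content and length removed (diamonds); filled symbols have an adjusted p of at most 0.01. As counted, MAP2K2 (0.25) and NF1 (-0.17) are filled in R1 against parental and NF1 (0.22) in R2 against R1, and 0 diamonds are filled.

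Ratios between core genes within a library do not depend on scaling. The log2 ratio of MAP2K1 to MAP2K2 counts was -0.595, -0.691 and -0.618 in LIM1215-parental, -0.775, -0.881 and -0.814 in R1 and -0.634, -0.594 and -0.582 in R2. R1 lay below both other lines without overlap, by 0.189 on average from LIM1215-parental. With 3 libraries against 3 the exact two-sided permutation test cannot go below p = 0.1, which is the value it gave here for R1 against either line, beside p = 0.5 for R2 against LIM1215-parental. This ratio sets a transcript of 51.2% GC against one of 65.4%, and with the trends on GC content and length removed the R1 difference shrank to -0.0198. The same removal raised the difference of R2 against LIM1215-parental from 0.0309 to 0.161. That of R2 against R1 went from 0.220 to 0.180.

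The log2 ratio of ARAF to BRAF was 0.508 ± 0.133 in LIM1215-parental, 0.665 ± 0.116 in R1 and 0.487 ± 0.0536 in R2 (SD, n = 3), and the exact permutation p was 0.2 for R1 and 0.9 for R2 against LIM1215-parental. R2 lay below R1 without overlap, by 0.177 (exact permutation p = 0.1), and by 0.0304 once the trends were removed. The log2 ratio of NRAS to NF1, the GTPase over its inactivator, was -0.0987, -0.231 and -0.142 in LIM1215-parental and -0.257, -0.312 and -0.299 in R2. The R2 values were lower without overlap, by 0.132 (exact permutation p = 0.1, the smallest this design allows). The R1 libraries, at 0.0363, -0.325 and -0.0236, spread over the range of both other lines.

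Levels between genes were compared per kilobase of annotated exon (CPM per kb). In LIM1215-parental, NRAS was the highest at 32.2 ± 1.79, followed by MAPK3 at 24.1 ± 2.84, ARAF at 15.0 ± 0.993, MAP2K2 at 13.3 ± 0.786, MAP2K1 at 10.3 ± 0.257, NF1 at 3.77 ± 0.0384 and BRAF at 1.53 ± 0.0621 CPM per kb (SD, n = 3). In LIM1215-R1, MAP2K2 at 15.8 ± 1.45 and ARAF at 15.3 ± 0.593 CPM per kb differed by less than their spread. The order depended on the length used, since the exon union counts every annotated exon and reaches 41.1 kb for NF1 and 23.4 kb for BRAF, against canonical transcripts of 12.4 and 6.46 kb. Per kb of canonical transcript, MAP2K2 led in LIM1215-parental at 59.9 ± 3.53, before MAPK3 at 49.4 ± 5.82, NRAS at 32.2 ± 1.79, MAP2K1 at 26.1 ± 0.653, ARAF at 21.5 ± 1.42, NF1 at 12.5 ± 0.128 and BRAF at 5.55 ± 0.225 CPM per kb. By either length NF1 and BRAF held the lowest places and ARAF exceeded BRAF.

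Read sharing with related sequences could be examined only in part. The 17 pseudogenes listed under the names of the core genes had 10 counts in all 9 libraries together, and 0 bases of the core genes' exons overlapped with another gene on the same strand. Reads that align to several places are not counted by default in HTSeq, so low counts of pseudogenes do not show how many reads the core genes lost in this way. HRAS had 1 count in parental library 1, 1 in R2 library 1 and 0 in the other 7, while 3 counts in a library correspond to 0.160 to 0.218 CPM. Its level could not be read from these counts, and no difference between the lines can be read from it. The span of HRAS (chromosome 11, 532242 to 537321) is repeated at full length and with 100% identity in an alternate sequence of hg38, which covers 470360 to 678672 of chromosome 11, whereas 0 alternate sequences covered NRAS, BRAF, ARAF, MAP2K2, MAPK3 or NF1, and 2.31% of MAP2K1 had such a match. The 10 protein-coding genes inside that stretch had a median of 68.5 counts over the 9 libraries, and the 25 within 200 kb on its sides a median of 8062. Whether the genome index used for alignment held the alternate sequences is not given in the sources used here, and its part in the HRAS count was not tested.

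For the core genes that changed in LIM1215-R1, the genes with the most similar profile over the 9 libraries were found by the root mean square difference of centred log2 CPM among 9302 genes of at least 10 CPM. For MAP2K2 they were PLXNB2 (0.0232), WIZ (0.0267) and HR (0.0279), whose transcripts hold 63.1%, 61.4% and 65.0% GC. For NF1 they were VPS13D (0.0271), PARP4 (0.0329) and ATP11A (0.0343), at 46.9%, 44.5% and 51.9% GC. These distances compare with 0.130 and 0.103, the root mean square of MAP2K2 and NF1 about their own means. The GC contents are a description without a value for the 9302 genes beside them, and their part in the likeness was not tested.

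Genes that start within 1 Mb of a core gene were examined as a description of the surrounding chromosome. Of the 40 genes around MAP2K2, 11 were higher and 1 lower in R1, with a median log2 fold change of 0.15, beside -0.011 over all genes. Over all genes tested, 14.0% were higher and 13.4% lower in R1. With the trends on GC content and length removed, the median was -0.0040, with 7 higher and 11 lower, beside 3152 and 2968 of all 19102 genes. The 23 genes around NF1 had a median of -0.073 in R1, with 3 higher and 3 lower, and the medians around the other 5 core genes lay between -0.15 and 0.037.

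The sequences upstream of the core genes that changed are printed for reference, up to the annotated start, from RefSeq on GRCh38.p14, with capitals for the GC box (GGGCGG, read on both strands) and the cAMP response element TGACGTCA:
MAP2K2, chr19:4124123-4124372, minus strand: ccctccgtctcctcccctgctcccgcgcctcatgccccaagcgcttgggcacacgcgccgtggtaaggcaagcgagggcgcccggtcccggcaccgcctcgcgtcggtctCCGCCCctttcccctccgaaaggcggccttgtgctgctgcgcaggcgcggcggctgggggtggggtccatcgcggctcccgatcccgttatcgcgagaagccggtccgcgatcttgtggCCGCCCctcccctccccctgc
NF1, chr17:31094727-31094926, plus strand: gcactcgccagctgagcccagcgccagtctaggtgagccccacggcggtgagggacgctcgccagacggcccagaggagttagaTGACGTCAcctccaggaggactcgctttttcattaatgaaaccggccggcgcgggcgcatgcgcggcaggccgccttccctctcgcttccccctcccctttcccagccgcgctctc
The MAP2K2 stretch of 250 bases holds 2 GC boxes and 74% GC, and the NF1 stretch of 200 bases holds 1 cAMP response element and 67.5% GC. Over all 35116 windows of 300 bases in the table, 45% held a GC box on either strand, 1.85% TGACGTCA, 4.14% the ETS letters CCGGAAGT and 7.71% the AP-1 letters, TGANTCA. Among the 7 core genes, 4 windows held a GC box, 1 TGACGTCA, 2 CCGGAAGT (NRAS and NF1) and 0 TGANTCA. A match is a stretch of letters and not a shown binding site.

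The rest of the pathway was read from 8 lists of genes around the core. Of 122 genes tested, 56 changed in LIM1215-R1 (36 higher, 20 lower) and 53 in LIM1215-R2 (34 higher, 19 lower). These were 45.9% and 43.4%, beside 27.3% and 23.8% of all genes. Of the 4776 genes at 34.9 to 152 CPM, 40.4% and 34.2% changed. The pathway genes were not matched to other genes by abundance. With total counts in place of TMM the R1 split was 32 higher and 27 lower. The resistant lines differed from each other in 16 of the 122, 8 in each direction. Both contrasts use the same parental libraries, so their counts are not independent.

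**Figure D4:**
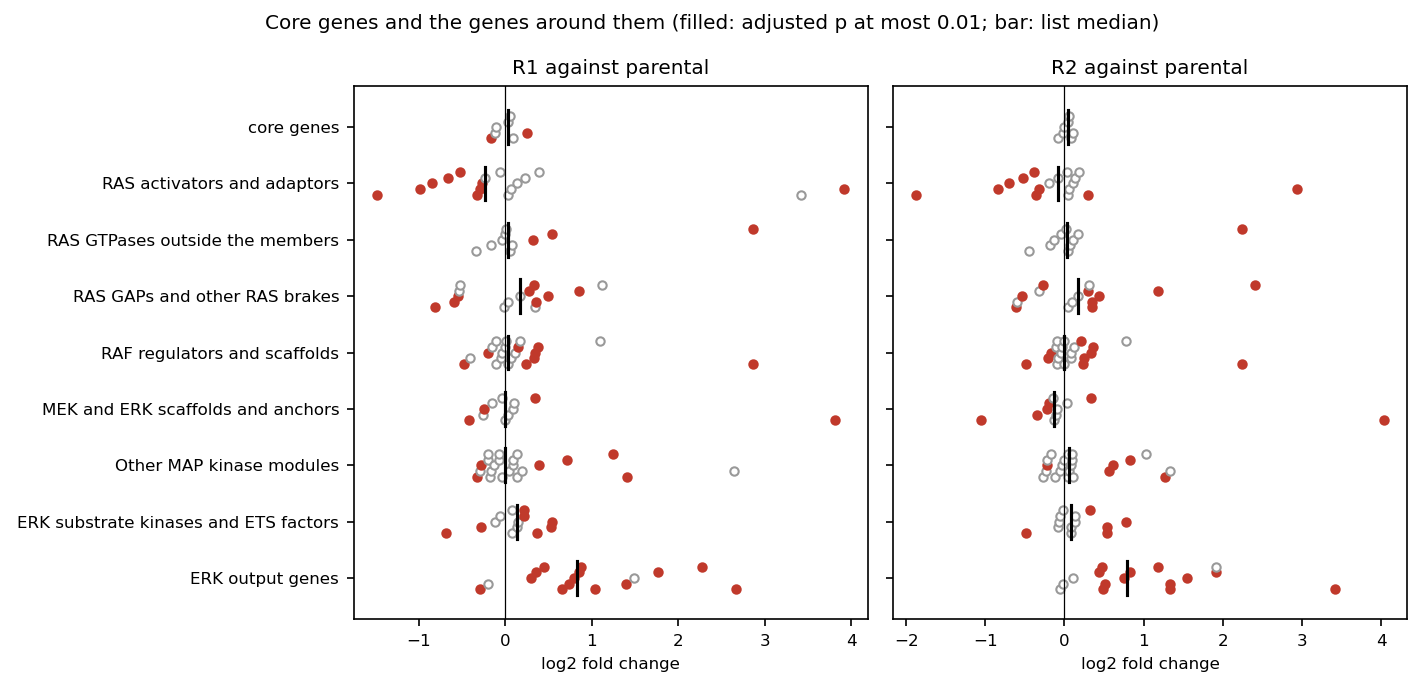
Log2 fold changes (horizontal axis) of the core genes and of the 8 lists around them in R1 and R2 against parental; each point is a gene, filled where the adjusted p was 0.01 or lower, and the bar is the list median. The core genes gather within 0.25 of 0, while the median of the ERK output genes lies at 0.82 in R1 and 0.79 in R2.

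Upstream of RAS stand receptors, adaptors and exchange factors. Of 17 tested, 1 rose and 8 fell in R1, and 2 rose and 7 fell in R2. After removal of the library trends the split was 5 higher and 8 lower in R1, and 3 higher and 8 lower in R2. SOS1, the exchange factor that loads RAS with GTP after receptor activation, had 100, 93.0 and 97.1 CPM in LIM1215-parental, 65.3, 54.9 and 62.8 CPM in R1 and 73.8, 66.3 and 62.6 CPM in R2. All 6 resistant libraries were below the parental ones, with log2 fold changes of -0.67 (SE 0.067, adjusted p = 5.43e-09) and -0.52 (SE 0.066, adjusted p = 3.93e-07). GAB1, a docking protein, fell from 24.5 to 12.4 and 13.6 CPM, and ERBB3, a receptor that pairs with the EGF receptor family, from 406 to 226 and 249 CPM. The study reports unaltered HER3 protein, the product of ERBB3, in both resistant lines, in total and at the cell surface. RASGRF1, another exchange factor, rose from 0.260 to 4.07 CPM in R1 and 2.06 CPM in R2, and RASGEF1B fell from 4.62 to 1.66 and 1.26 CPM. The adaptor GRB2 was at 156, 164 and 163 CPM and the phosphatase PTPN11 at 322, 330 and 353 CPM in the 3 lines, and neither passed the test in R1 or R2.

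Among 10 other RAS-family GTPases tested, 3 rose and 0 fell in R1, and 1 rose and 0 fell in R2, which became 1 higher and 2 lower in R2 without the library trends. MRAS, a GTPase that acts with SHOC2 on RAF, rose from 0.389 to 2.82 CPM in R1 and 1.84 CPM in R2. RRAS (9.07 against 6.25 CPM, adjusted p = 0.00312, not called without the GC trend) and RAP2B (84.0 against 67.3 CPM, adjusted p = 3.21e-05) rose in R1, and their adjusted p in R2 was 0.420 and 0.343.

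The list of RAS brakes to which NF1 belongs by function moved in both directions. Of 15 tested besides NF1, 5 rose and 3 fell in R1, and 6 rose and 3 fell in R2. SPRED1, SPRED2, LZTR1, RASSF1 and RIN1 rose in both lines, and RASA3, at a mean of 0.660 CPM, in R2. SPRED1 and SPRED2 are counted among the ERK output genes as well. SPRED1, the membrane protein that brings NF1 to RAS, rose from 46.7, 40.4 and 43.6 CPM to 86.1, 72.4 and 78.0 CPM in R1 and 104, 102 and 90.6 CPM in R2. Neither resistant line overlapped with LIM1215-parental, as was the case for 44.0% of all genes in R1 and 42.8% in R2. The log2 fold changes of SPRED1 were 0.85 (SE 0.071, adjusted p = 1.44e-10) and 1.18 (SE 0.070, adjusted p = 1.42e-13). The GTPase-activating proteins DAB2IP (92.0 to 52.2 and 60.0 CPM), RASA2 (34.4 to 22.9 and 23.9 CPM) and RASAL2 (36.9 to 25.3 and 30.7 CPM, the R2 call being lost in DESeq2) fell in both lines, while RASA1 stood at 55.0, 54.5 and 59.0 CPM with adjusted p = 0.879 and 0.240.

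At the level of RAF, 6 of 21 regulators rose and 2 fell in R1, and 6 rose and 3 fell in R2, MRAS being counted here as well. PAK1, a kinase that phosphorylates RAF, fell from 39.4 to 28.2 CPM in R1 and 27.9 CPM in R2. The 14-3-3 genes YWHAG (319 to 415 and 404 CPM) and YWHAH (265 to 333 and 341 CPM) rose in both. PEBP1, which binds RAF and limits its access to MEK, fell from 270 to 236 and 234 CPM (adjusted p = 0.000596 and 0.000393). SHOC2 (39.2, 39.1 and 38.5 CPM) and the scaffold KSR1 (17.6, 18.0 and 17.0 CPM) did not pass the test.

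Of 11 scaffolds and anchors of MEK and ERK, 2 rose and 2 fell in R1, and 2 rose and 4 fell in R2. PTPRR, a tyrosine phosphatase that binds and inactivates ERK, had 3.36, 3.83 and 3.20 CPM in LIM1215-parental, 48.5, 48.5 and 48.2 CPM in R1 and 55.1, 57.9 and 56.3 CPM in R2, with log2 fold changes of 3.81 (SE 0.094) and 4.03 (SE 0.093). PEA15, which holds ERK in the cytoplasm, rose from 52.0 to 66.1 and 65.4 CPM. IQGAP2 fell from 17.8 to 13.4 and 8.58 CPM, the R1 call being lost in DESeq2 and without the library trends, and LAMTOR3, part of a late-endosomal MEK scaffold, from 39.4 to 31.2 CPM in R2 (33.0 CPM in R1, adjusted p = 0.0165).

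Of 22 genes of the other MAP kinase modules, 4 rose and 2 fell in R1, and 4 rose and 1 fell in R2, which became 4 higher and 4 lower in R2 without the library trends. The p38 kinase gene MAPK12 rose from 11.1 to 29.7 and 27.0 CPM, its activator MAP2K3 from 65.8 to 108 and 97.2 CPM, and MAP3K5 from 29.9 to 39.3 and 53.0 CPM. MAPK11 was read at 0.630, 1.49 and 1.29 CPM and passed the test in R1 (adjusted p = 0.00246, lost in DESeq2, and 0.0147 in R2). The median of this list was -0.00082 in R1 and 0.054 in R2.

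Downstream, 5 of 13 ERK substrate kinases and ETS factors rose and 2 fell in R1, and 4 rose and 1 fell in R2. RPS6KA4 (82.8 to 121 and 120 CPM), MKNK2 (92.2 to 133 and 134 CPM) and RPS6KA2 (16.8 to 21.4 and 28.6 CPM) rose, and RPS6KA6 fell (24.2 to 15.2 and 17.4 CPM).

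The ERK output genes are genes that active ERK can induce, and ERK activity itself was not measured in these libraries. Of 16 tested, 13 rose and 1, EGR1, fell in R1, and 12 rose and 0 fell in R2, with medians of 0.82 and 0.79 beside -0.011 and -0.0037 over all genes. PHLDA1 had 17.1, 15.2 and 17.4 CPM in LIM1215-parental, 108, 104 and 106 CPM in R1 and 185, 180 and 170 CPM in R2. DUSP6, the phosphatase that acts on ERK in the cytoplasm, had 27.0, 26.5 and 26.8 CPM, then 90.1, 90.3 and 93.8 CPM, then 78.4, 77.8 and 79.1 CPM. The 3 groups were apart for both genes, which were named for large changes against LIM1215-parental. Over all genes, CPM did not overlap for 44.0% in R1 and 42.8% in R2 against LIM1215-parental, and for 28.0% between R2 and R1. PHLDA1 was highest in R2 and DUSP6 in R1. The DUSP6 difference between the resistant lines lost its call with total counts in place of TMM. DUSP5 (10.1 to 49.3 and 38.4 CPM) and FOSL1 (16.5 to 43.2 and 41.4 CPM) rose as well. After removal of the library trends, 12 of the 16 rose and 2 fell in R1, and 12 rose and 0 fell in R2, whereas 0 of the 7 core genes remained changed. Of all 19102 genes tested, 3152 then rose and 2968 fell in R1, and 2958 rose and 2812 fell in R2.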

How the data were processed

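The authors aligned stranded poly(A) RNA-seq reads to hg38 with STAR and assigned them to genes with HTSeq 0.9.1, taking the reverse strand. The deposited values are raw counts for 58920 genes in 9 libraries, and the gene annotation is not given in the sources used here. The filter on low values kept the 19102 genes whose libraries summed to 10 or more. Counts were scaled by TMM and tested with edgeR 4.0.16 (quasi-likelihood, 1 fit over the 9 libraries, Benjamini-Hochberg adjustment over all genes tested), on simulated counts first. Alternatives, among them the DESeq2 1.42.0 Wald test and the removal of spline trends on GC content and transcript length, were run in R 4.3.3. Positions, transcript lengths and GC content came from GENCODE v44, which matched 85.7% of the genes tested by symbol, and alternate sequences were searched with minimap2 (at least 99% identity). Intervals and floors cover counting error and the spread of these libraries only. Core genes and lists were chosen with earlier results of these data known. Besides the core genes, up to 4 changed genes per list of at least 1 CPM with the largest mean absolute log2 fold change are named, with SOS1, GRB2, PTPN11, RASA1, KSR1, SHOC2 and PEBP1, and the 3 genes most similar to each core gene that changed against LIM1215-parental. Other genes named were singled out after their values were seen. Replicate pairs of a line differed by more than sampling noise.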

Additional observations from a re-analysis of the deposited data

Results flagged for a closer look

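The difference between LIM1215-R2 and LIM1215-R1 tests directly whether the resistant lines moved apart, and 1 core gene and 9 of the named pathway genes passed it (edgeR, adjusted p at most 0.01). Of all genes tested 7.16% passed it, of the 4776 genes at 34.9 to 152 CPM 10.6%, and of the 122 pathway genes 13.1%. Most pathway genes were named for large changes against LIM1215-parental, so the 9 do not stand for the pathway. NF1 stood 0.222 (log2) higher in R2 than in R1, and this was lost when trends on GC content and length were removed (0.094, adjusted p = 0.110) but not with the GC trend alone (0.17, adjusted p = 0.00166). SPRED1 was 0.323 higher in R2, MAP3K5 0.431, RPS6KA2 0.414 and PHLDA1 0.752. RASGRF1 differed by -0.983, IQGAP2 by -0.639, DUSP5 by -0.362, RAP2B by -0.244 and DUSP6 by -0.221, all lower in R2. DUSP6 missed the threshold with total counts in place of TMM (adjusted p = 0.0105). Leaving out R1 library 3 or R2 library 2 also lost the calls of SPRED1, RPS6KA2, RASGRF1, IQGAP2, RAP2B and DUSP6, R2 library 1 those of SPRED1, RASGRF1, RAP2B and DUSP6, and R2 library 3 those of RPS6KA2, RASGRF1 and DUSP6. RASGRF1 was not called without any 1 of the 6 libraries compared, with adjusted p up to 0.0565. What set these differences was not tested.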

How the results depend on the processing

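Counts of core genes were the most sensitive values. In R1 against parental the 2 calls became 1 with DESeq2 size factors, with no filter on low counts, with only the 6 libraries compared, and in DESeq2 with or without shrinkage, NF1 being the gene lost, and 0 once the trends on base composition and length were taken out, jointly (with or without the replicate block) or singly. In R2 against R1 the 1 call became 2 with no filter, with the replicate block and at an adjusted p of 0.05, and 0 with both trends or the length trend removed. The count for R2 against parental was 0 throughout. Leaving out each library gave 0 to 2 calls in R1 against parental and 0 to 2 in R2 against R1.

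The pathway count for R2 against R1 was 26 at 0.05, 25 with the GC trend alone removed, 27 with the replicate block and the trends removed, and 8 to 18 with a library left out; without R1 library 3, R2 library 1 or R2 library 2 it was 8, 9 and 8. No alternative moved the pathway counts of the other comparisons by over 1.5 times, but single lists moved without the library trends: in R2, other MAP kinase modules from 4 higher and 1 lower to 4 and 4, and RAS GTPases from 1 and 0 to 1 and 2. Of the named pathway genes called, 4 of 31 in R1, 2 of 29 in R2 and 6 of 9 between the resistant lines lost the call under some alternative, and 3, 1 and 1 of them did so other than by leaving out a library: RRAS, IQGAP2, MAPK11 and RASAL2 against parental and DUSP6 between the resistant lines.

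With the trends removed, R1 against parental turned to 0.0211 for NRAS, 0.0205 for BRAF, -0.0984 for ARAF, -0.0739 for MAPK3 and 0.0126 for NF1, and with the replicate block as well to 0.0214, 0.0215, -0.0974, -0.0745 and 0.0106. With the GC trend alone removed NRAS was 0.0320, ARAF -0.0765 and MAPK3 -0.0561, and with the length trend alone ARAF was -0.0175. MAP2K2 in R2 turned to -0.0867 (-0.0874 with the block, -0.0854 without the GC trend). R2 against R1 turned to -0.0670 for NRAS and 0.00666 for ARAF (-0.0666 and 0.00674 with the block, -0.0709 and 0.000950 without the GC trend). BRAF in R2, at 5.3e-05, was -0.0164 with total counts and -0.00184 with 10 counts in every library. None of these was called before or after, except NF1 in R1. Leaving out single libraries moved BRAF in R2 between -0.0255 and 0.0340, ARAF in R2 between -0.0562 and 0.0324, and, between the resistant lines, NRAS between -0.0493 and 0.0977, MAP2K1 between -0.0282 and 0.0476 and MAPK3 between -0.0310 and 0.0879. The ratio of ARAF to BRAF in R2 moved between -0.0918 and 0.0403 and that of NRAS to NF1 in R1 between -0.0169 and 0.164. With both trends removed the ratio of ARAF to BRAF in R1 was -0.116. The cause was not tested.

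Same-numbered libraries of different lines had deviations that correlated between -0.186 and 0.581, not all above 0.1, so the numbers were not taken to pair the libraries; 6 of 9 correlated best with their own number, a hint from the data and not the design. The replicate block gave 64, 61 and 22 pathway calls in place of 56, 53 and 16. The core genes had from 479 to 2974 counts per library, fewest for BRAF. The trends could be taken out for the 85.7% of tested genes that had a GC content and length. The block together with the trends, each trend alone, the ratios without trends and the canonical transcript length, were chosen after seeing the data. That length moved the CPM per kb of 6 of the 7 core genes, NRAS being the exception.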
